A study of Homo sapiens with 9 samples.

Results

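A pair of lentiviral knock-down sets of the same target, named N_28 and N_30, were compared with each other without a control library. The 6 libraries were chosen by their count columns, N_30 1 to 3 against N_28 1 to 3, from the 9 libraries of the study. The comparison covered every gene that passed a low-count filter, 14696 of the 60448 rows of the count table. All libraries came from cells labelled Huh7, a hepatocellular carcinoma line, grown in DMEM. The treatment label is the same for all 9 libraries, OPA1 knock-down by lentivirus, and the genotype label sets 3 of them apart as control. The labels do not state what the numbers in N_28 and N_30 refer to, whether a set is 1 clone or a pool of cells, or whether the 3 libraries of a set came from separate cultures. The p-values therefore describe how these libraries scatter, and that scatter may be technical.

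OPA1 is a large GTPase of the inner mitochondrial membrane. It fuses inner membranes after the mitofusins have fused the outer ones, and it holds the cristae, the folds that carry the respiratory chain, in shape. Proteases of the inner membrane cut it into long and short forms, and its loss leaves mitochondria in fragments. The comparison of N_30 with N_28 lists the transcripts in which the knock-down sets were not alike, whichever way each stood to control.

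OPA1 (ENSG00000198836, chr3:193593144-193697823 on GRCh38) was at 53.2, 55.6 and 57.8 CPM in the N_28 libraries and at 64.1, 63.3 and 65.8 CPM in the N_30 libraries. Control libraries had 82.8, 92.9 and 90.5 CPM. The groups did not overlap, with OPA1 lowest in N_28 and highest in control. OPA1 was higher in N_30 than in N_28 (log2 difference 0.21, SE 0.057, adjusted p = 0.0231, quasi-likelihood test of edgeR, adjusted by Benjamini-Hochberg). CPM is a gene's count relative to the scaled total of its library, and all log2 differences here are N_30 minus N_28. The call was lost without N_28 library 1 (log2 difference 0.18, adjusted p = 0.1), without N_28 library 2 (0.21, adjusted p = 0.0755), without N_30 library 1 (0.22, adjusted p = 0.051) and without N_30 library 2 (0.23, adjusted p = 0.0514).

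The 6 libraries held 16476389 to 22863328 counts, and 3 counts in a library equalled 0.131 to 0.18 CPM, a limit that covers counting error only. Mitochondrially encoded transcripts took 3.3% to 4.28% of the counts and cytosolic ribosomal protein transcripts 4.61% to 5.03%. The first principal component held 67.3% of the variance and parted N_28 from N_30, while the second held 15.9% and set both libraries numbered 3 apart from the others of their set. Results are given with all 6 libraries, and the count of differing genes also without those 2. The liver origin named in the labels was set against marker transcripts, most of which were low or absent. Of 53 hepatocyte plasma protein genes, 38 were under 1 CPM in all 9 libraries and 8 had no count in any of them. ALB, the albumin gene, had no count in the N_28 libraries (which allows up to 0.165 CPM) and 0.601, 0.302 and 0.133 CPM in N_30, and APOB, the apolipoprotein of liver-derived lipoproteins, had none in any library. AFP, the fetal liver protein, was at 0.577, 1.26 and 0.874 CPM in the N_28 libraries and at 1.14, 1.31 and 0.711 CPM in the N_30 libraries. The line is therefore called here only by its label.

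Among the 14696 genes tested, 2851 (19.4%) differed between the knock-down sets at an adjusted p under 0.05 in edgeR's quasi-likelihood test. Of these, 1446 were higher in N_30 (9.84% of genes tested) and 1405 were lower (9.56%). Without both libraries numbered 3 the count was 2833, of which 2356 were among the 2851. Leaving out N_28 library 2 reduced the count to 1753, of which 1724 were shared. Most differences were small. The median size among called genes was 0.40 on the log2 scale, with quartiles of 0.28 and 0.71, and the median over all genes tested was 5e-04. At least 1 on the log2 scale was reached by 457 called genes (3.11% of genes tested), 269 of them higher and 188 lower in N_30, and at least 2 by 60 and 14. Libraries of the sets did not overlap in 36.9% of genes tested, 2714 with N_30 above and 2707 with N_30 below. Of 2402 genes that averaged at least 100 CPM, 598 were called (24.9%).

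Among genes averaging 5 CPM or more, MSC and C3 had the largest differences toward N_30, and ANO1 and MYH14 the largest toward N_28. These genes were chosen with their values known. C3 encodes the central component of complement, on which all its activation routes converge. C3 (ENSG00000125730, chr19:6677704-6730562) was at 14.6, 10.04 and 15.2 CPM in the N_28 libraries and at 112, 107 and 78.9 CPM in the N_30 libraries. Every N_30 library exceeded every N_28 library (log2 difference 2.89, SE 0.16, adjusted p = 1.26e-06), and control libraries had 29.3, 31.9 and 23.8 CPM, above N_28 and below N_30. MSC encodes musculin, a helix-loop-helix repressor of transcription. MSC was at 1.25, 1.26 and 1.31 CPM in the N_28 libraries and at 16.3, 15.1 and 8.80 CPM in the N_30 libraries, with library 3 the lowest of N_30 (log2 difference 3.38, SE 0.26, adjusted p = 8.79e-06). Control libraries had 8.96, 8.99 and 6.36 CPM of MSC. ANO1 encodes a chloride channel opened by calcium. ANO1 (ENSG00000131620, chr11:70078302-70189528) was at 27.4, 29.9 and 35.7 CPM in the N_28 libraries and at 5.23, 5.83 and 7.02 CPM in the N_30 libraries (log2 difference -2.35, SE 0.13, adjusted p = 1.26e-06). Its control level of 7.58, 7.92 and 6.94 CPM lay near that of N_30. MYH14 encodes the heavy chain of a nonmuscle myosin 2. MYH14 (ENSG00000105357, chr19:50188186-50310544) was at 25, 22.7 and 24.95 CPM in the N_28 libraries and at 6.85, 3.97 and 6.09 CPM in the N_30 libraries (log2 difference -2.11, SE 0.15, adjusted p = 5.08e-06), and control libraries had 10.2, 8.23 and 9.23 CPM. These p-values come from edgeR's quasi-likelihood test, and C3 shares bases with GPR108, so reads of the overlap cannot be told apart.

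**Figure D1:**
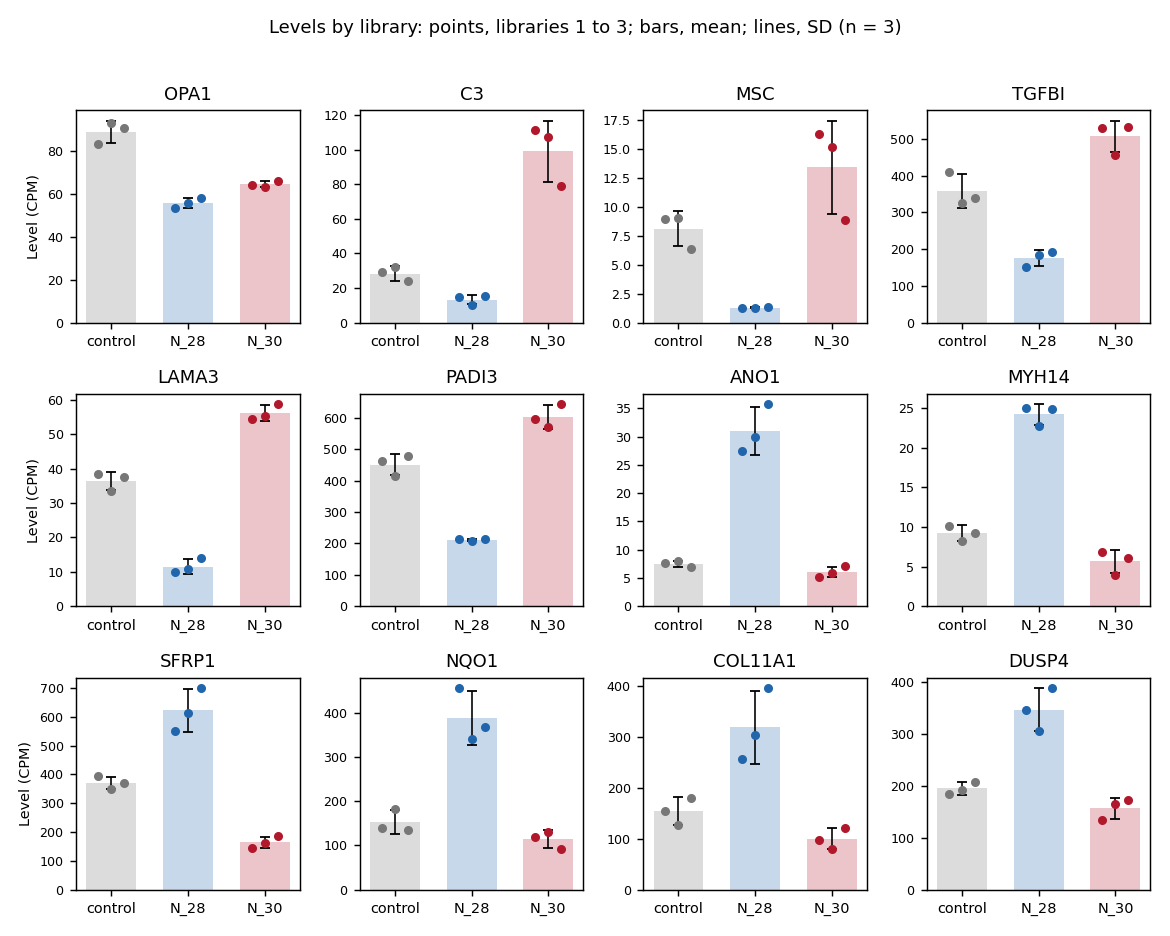
Levels in CPM of 12 genes in the 9 libraries, with points for libraries, bars for the mean and lines for the SD (n = 3 in each group). In all 12 panels the N_28 and N_30 points do not overlap, and the control mean lies between them except for OPA1, where control is the highest at 82.8 to 92.9 CPM.

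Besides C3 and MSC, the 12 largest differences toward N_30 among genes averaging at least 5 CPM named matrix, clotting and signalling proteins. LAMA3, the alpha 3 chain of epithelial laminin, was at 9.81, 10.8 and 13.9 CPM in the N_28 libraries and at 54.6, 55.2 and 58.8 CPM in the N_30 libraries (log2 difference 2.28, SE 0.11, adjusted p = 8.58e-07). TGM2, the transglutaminase that cross-links proteins, was at 13.1, 10.9 and 13.3 CPM in the N_28 libraries and at 47.7, 54.2 and 46.8 CPM in the N_30 libraries (log2 difference 1.99, SE 0.093, adjusted p = 8.58e-07). TMEM158, a membrane protein first found through its response to Ras, was at 3.85, 4.06 and 4.24 CPM in the N_28 libraries and at 18.3, 26.04 and 24.1 CPM in the N_30 libraries (log2 difference 2.50, SE 0.14, adjusted p = 1.44e-06). In these 3 genes the lowest N_30 library exceeded the highest N_28 library. F3, tissue factor, which starts the clotting cascade, was at 4.71, 4.61 and 3.15 CPM in the N_28 libraries and at 25.2, 22.1 and 11.2 CPM in the N_30 libraries (log2 difference 2.23, SE 0.28, adjusted p = 0.000272). BMPER, a secreted binder of bone morphogenetic proteins, was at 3.85, 4.22 and 2.62 CPM in the N_28 libraries and at 17.1, 20.96 and 11.1 CPM in the N_30 libraries (log2 difference 2.21, SE 0.24, adjusted p = 9.25e-05). In F3 and BMPER, N_30 library 3 lay well under libraries 1 and 2, though above all N_28 libraries. EVA1A, a membrane protein tied to autophagy, was at 1.97, 2.08 and 1.57 CPM in the N_28 libraries and at 11.4, 10.9 and 11.7 CPM in the N_30 libraries (log2 difference 2.60, SE 0.14, adjusted p = 1.26e-06). EVA1A was the 1 gene of these 12 whose control mean did not lie between the sets, with 12.5, 13.6 and 16.4 CPM. The rest were CP (2.19), which carries plasma copper, GBP1 (2.08), a GTPase induced by interferon, DNER (2.39), a Notch-binding membrane protein, and GBGT1 (1.99), a glycolipid glycosyltransferase. Reads shared with HPS3 (CP) and RPRD1B (TGM2), which overlap these genes, cannot be told apart.

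Among the 12 largest differences toward N_28 was SFRP1, a secreted antagonist of Wnt ligands. SFRP1 was at 552, 612 and 701 CPM in the N_28 libraries and at 145, 162 and 185 CPM in the N_30 libraries (log2 difference -1.92, SE 0.10, adjusted p = 1.26e-06). Control libraries had 393, 349 and 369 CPM, between the sets. NQO1, a quinone reductase, was at 457, 340.3 and 369 CPM in the N_28 libraries and at 119, 131 and 91.4 CPM in the N_30 libraries (log2 difference -1.77, SE 0.13, adjusted p = 7.96e-06). Its control level of 139, 183 and 135 CPM was nearer to N_30. MCAM, an adhesion molecule of the immunoglobulin family, was at 121, 149.7 and 158 CPM in the N_28 libraries and at 42.4, 39 and 50.6 CPM in the N_30 libraries (log2 difference -1.70, SE 0.11, adjusted p = 3.55e-06). FLNC, the actin cross-linker filamin C, was at 87.5, 101 and 78.2 CPM in the N_28 libraries and at 26.98, 30.5 and 23.8 CPM in the N_30 libraries (log2 difference -1.71, SE 0.11, adjusted p = 2.36e-06). Neither MCAM nor FLNC had an N_30 library that reached the lowest N_28 library. PLAT, the tissue plasminogen activator, was at 54.1, 59.8 and 40.8 CPM in the N_28 libraries and at 15.2, 18.04 and 13.96 CPM in the N_30 libraries (log2 difference -1.71, SE 0.14, adjusted p = 1.36e-05). RUNX3, a transcription factor of the Runt family, was at 33.8, 35.7 and 44.2 CPM in the N_28 libraries and at 9.98, 12.3 and 12.8 CPM in the N_30 libraries (log2 difference -1.69, SE 0.12, adjusted p = 5.33e-06). The remaining differences were those of SH3TC2 (-1.99), JAM3 (-1.83), a junctional adhesion molecule, FAM50B (-1.81) and the long noncoding RNA LINC02535 (-1.78). For all 12 genes the control mean lay between both sets. JAM3 overlaps NCAPD3 and MCAM overlaps CBL, and reads of the overlaps cannot be assigned without strand.

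Genes averaging at least 100 CPM differed by up to 1.52 toward N_30 and by up to 1.92 toward N_28 on the log2 scale. TGFBI, a matrix protein induced by transforming growth factor beta, was at 152, 184 and 193 CPM in the N_28 libraries and at 531, 456 and 532 CPM in the N_30 libraries (log2 difference 1.52, SE 0.092, adjusted p = 2.05e-06). PADI3, which turns protein arginine into citrulline, was at 215, 209 and 213 CPM in the N_28 libraries and at 597, 570.2 and 645 CPM in the N_30 libraries and had the smallest adjusted p of all genes tested (log2 difference 1.51, SE 0.059, adjusted p = 4.98e-07). CDH2, N-cadherin, was at 63.6, 69.1 and 66.5 CPM in the N_28 libraries and at 165, 154 and 142 CPM in the N_30 libraries (log2 difference 1.21, SE 0.067, adjusted p = 1.26e-06). IFITM3, a membrane protein that restricts virus entry, was at 80.9, 79.8 and 81.9 CPM in the N_28 libraries and at 172, 169 and 173 CPM in the N_30 libraries (log2 difference 1.08, SE 0.051, adjusted p = 8.58e-07). The libraries of each set lay close together in PADI3 and IFITM3. SPON2 (1.32), NPTX1 (1.29), GET3 (1.10) and NRP2 (1.05) completed the 8 largest on this side. Toward N_28, COL11A1, a fibrillar collagen chain, was at 257, 304 and 397 CPM in the N_28 libraries and at 98.6, 80.7 and 122 CPM in the N_30 libraries (log2 difference -1.67, SE 0.16, adjusted p = 4.50e-05). DLK1, a Notch-related protein of fetal tissues, was at 129.6, 162 and 186 CPM in the N_28 libraries and at 55.4, 43.5 and 51.8 CPM in the N_30 libraries (log2 difference -1.67, SE 0.12, adjusted p = 7.96e-06). MAPK7, the kinase ERK5, was at 443, 458 and 516 CPM in the N_28 libraries and at 229.5, 221 and 233 CPM in the N_30 libraries (log2 difference -1.05, SE 0.065, adjusted p = 2.38e-06), and B9D1, which overlaps it on the other strand, differed in the same direction (-1.02), so their shared reads cannot be told apart. AIF1L (-1.50), FA2H (-1.19) and DUSP4 (-1.14) followed SFRP1 and NQO1 among the 8 largest.

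Lysosomal genes were higher in N_30 more often than lower. Across enzymes, membrane proteins and the proton pump, 75 of 77 listed genes were tested, and 28 were called higher and 4 lower, with a median log2 difference of 0.17. Over all genes tested the shares were 9.84% and 9.56%. Lysosomes digest proteins, lipids and glycans with hydrolases that need an acid lumen, and the V-ATPase pumps the protons in. Many of their genes carry the CLEAR element in the promoter, the site at which TFEB and related factors bind. Its palindromic core TCACGTGA was searched in the 250 bases before each RefSeq start site (GRCh38.p14), where the palindrome reads the same on both strands. Promoters were on hand for 19 of the 28 genes called higher, and 4 of these 19 held the letters (21.1%). They were in 2 of 28 promoters of lysosomal genes not called (7.14%) and in 0 of 4 of those called lower. Over all listed lysosomal genes with a promoter it was 6 of 53 (11.3%), against 1.04% of all 27305 genes in the promoter table. Whether the element bears on the difference between the sets was not tested. Promoters of MCOLN1 and ATP6V1G1 are printed to show the element in its place, 5′ to 3′ on the gene's strand, with the core in capitals.

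MCOLN1 (chr19:7522374-7522623, plus strand): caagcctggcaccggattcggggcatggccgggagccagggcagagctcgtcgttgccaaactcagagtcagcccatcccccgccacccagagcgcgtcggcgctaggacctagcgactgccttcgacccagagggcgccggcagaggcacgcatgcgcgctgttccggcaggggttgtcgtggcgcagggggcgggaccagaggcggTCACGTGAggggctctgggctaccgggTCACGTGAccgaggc

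ATP6V1G1 (chr9:114587519-114587768, plus strand): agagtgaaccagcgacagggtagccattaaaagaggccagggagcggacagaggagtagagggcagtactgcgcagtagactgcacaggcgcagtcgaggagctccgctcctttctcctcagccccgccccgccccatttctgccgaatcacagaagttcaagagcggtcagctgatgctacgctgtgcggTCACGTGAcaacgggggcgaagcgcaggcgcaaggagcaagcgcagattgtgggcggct

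The MCOLN1 promoter held the core at 42 and again at 15 bases before the start, and the ATP6V1G1 promoter at 59 bases. The other two matches are shown with 10 bases on each side, 26 bases before the start in CTSA and 60 bases in ATP6V0D1.

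CTSA (chr20:45891299-45891326, plus strand): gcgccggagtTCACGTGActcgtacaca

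ATP6V0D1 (chr16:67481200-67481227, minus strand): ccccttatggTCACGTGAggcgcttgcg

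Of the 45 hydrolases and cathepsins, 15 were higher and 3 lower in N_30 (median 0.17, 37 of 45 above 0). CTSD, the aspartic protease cathepsin D, was at 104, 97.7 and 106 CPM in the N_28 libraries and at 189, 176 and 184 CPM in the N_30 libraries (log2 difference 0.84, SE 0.056, adjusted p = 3.95e-06). CTSA, which protects other lysosomal enzymes, was at 138, 122 and 138 CPM in the N_28 libraries and at 228, 234 and 225 CPM in the N_30 libraries (log2 difference 0.78, SE 0.061, adjusted p = 1.00e-05). The sets stood clear of each other in both genes, and the control levels of 146, 133 and 119 CPM for CTSD and 196, 175 and 174 CPM for CTSA lay between. CTSC, which activates serine proteases, was at 106, 108 and 99.96 CPM in the N_28 libraries and at 154, 142 and 138 CPM in the N_30 libraries (log2 difference 0.47, SE 0.061, adjusted p = 0.000354). PSAP, the saposin precursor, was at 1636, 1625 and 1547 CPM in the N_28 libraries and at 2150, 2025 and 1890 CPM in the N_30 libraries (log2 difference 0.34, SE 0.062, adjusted p = 0.0034). Among the others called higher were CTSH (0.58) and LIPA (0.20), the smallest. The 3 called lower were GALC (-0.40), GUSB (-0.35) and ARSB (-0.28). GAA (0.03) did not pass. Without N_28 library 2 the lower calls numbered 1.

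Among 30 tested genes of the lysosomal membrane and pump, 13 were higher and 1 lower in N_30 (median 0.17). The V-ATPase supplied 9 of the 13, out of 13 subunits tested. None of the 13 was lower in edgeR, also at an unadjusted p under 0.05. ATP6V1C1 was at 64.2, 63.1 and 61.2 CPM in the N_28 libraries and at 81.3, 80.2 and 79.4 CPM in the N_30 libraries (log2 difference 0.35, SE 0.053, adjusted p = 0.000911). ATP6V1E1 was at 74.96, 76.98 and 69.4 CPM in the N_28 libraries and at 92.7, 95.6 and 91.95 CPM in the N_30 libraries (log2 difference 0.34, SE 0.058, adjusted p = 0.0021). NPC1, which exports cholesterol from the lysosome, was at 114, 103 and 98.1 CPM in the N_28 libraries and at 137, 164 and 133 CPM in the N_30 libraries (log2 difference 0.46, SE 0.085, adjusted p = 0.00322). CTNS, the cystine exporter, was at 24.6, 23.1 and 23.4 CPM in the N_28 libraries and at 32.7, 35.03 and 30.1 CPM in the N_30 libraries (log2 difference 0.46, SE 0.075, adjusted p = 0.0017). MCOLN1, the calcium channel whose promoter is printed above, was at 28.9, 29.7 and 26.3 CPM in the N_28 libraries and at 35.7, 36.3 and 37.1 CPM in the N_30 libraries (log2 difference 0.36, SE 0.069, adjusted p = 0.00369). These differences were small beside those of C3 or SFRP1, and the libraries of the sets did not overlap. TFE3, a relative of TFEB, was the 1 member called lower (log2 difference -0.34, SE 0.065, adjusted p = 0.00369; 2 members without N_30 library 1), and TFEB itself (0.35, adjusted p = 0.119) and LAMP1 (0.12, adjusted p = 0.198) did not pass. When single libraries were left out, 10 to 17 hydrolases and 10 to 14 membrane and pump genes were called higher.

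**Figure D2:**
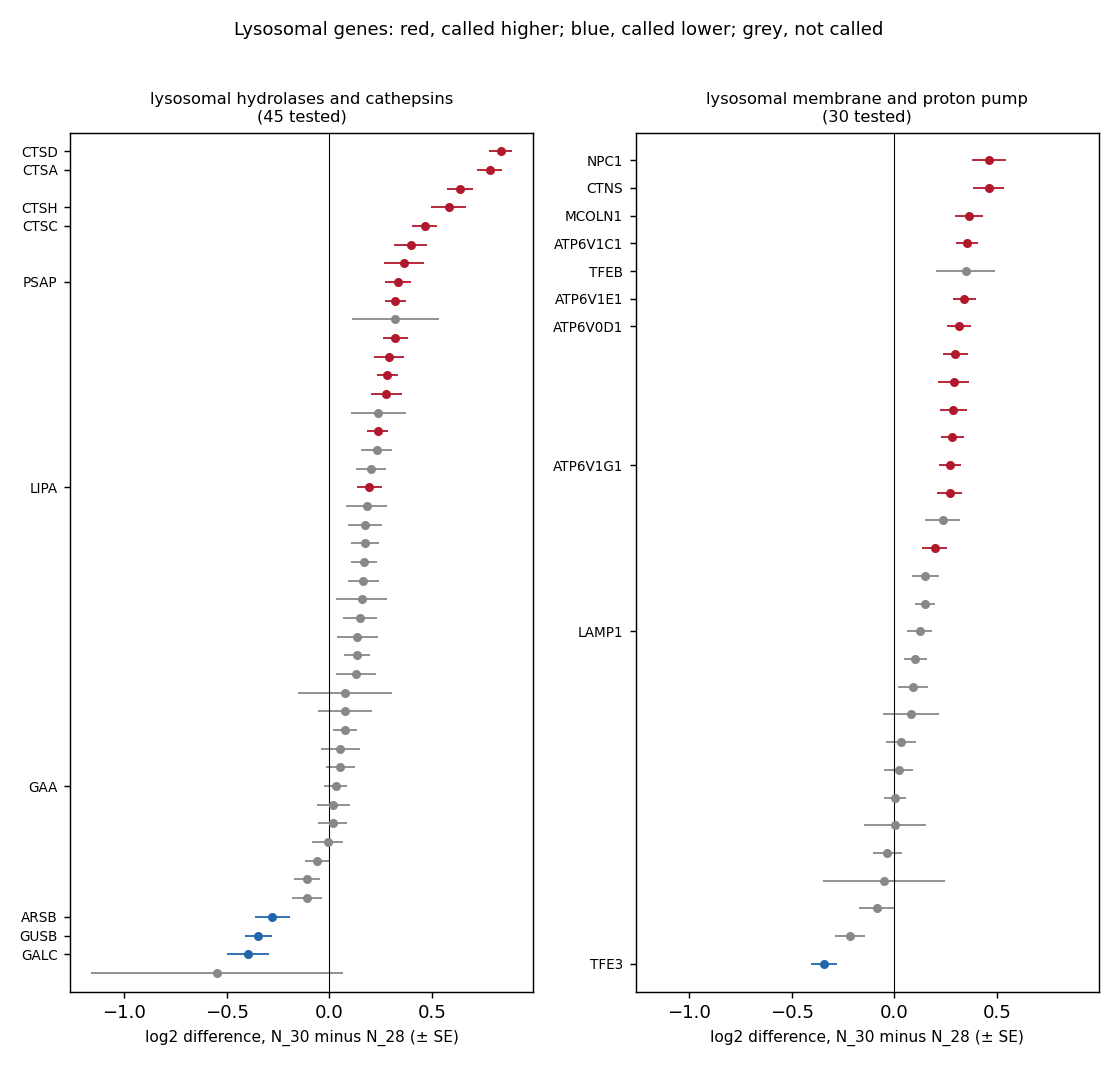
Log2 difference, N_30 minus N_28, with its SE for the 45 tested hydrolases and cathepsins (left) and the 30 tested membrane and pump genes (right). Called genes are in colour, genes named in the text are labelled, and 37 of 45 and 25 of 30 points lie above 0.

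Among complement and plasma protein genes, many of whose products hepatocytes secrete, more were called higher in N_30 than lower. Of 34 complement genes 16 were tested, with 6 higher and 1 lower (43.8% called, against 19.4% over all genes tested). Of the 16 differences, 10 were above 0. The 15 that passed the filter in both sets held 5 of the higher calls and the lower one. A gene that passed through 1 set only was let in by its level there, so the filter favours a difference toward that set. C1S, a protease of the classical route, was at 5.24, 5.16 and 6.47 CPM in the N_28 libraries and at 21.3, 16.1 and 12.98 CPM in the N_30 libraries (log2 difference 1.56, SE 0.18, adjusted p = 0.000137). C1R, the partner of C1S, was at 1.92, 1.59 and 2.49 CPM in the N_28 libraries and at 6.01, 5.23 and 4.18 CPM in the N_30 libraries (log2 difference 1.33, SE 0.21, adjusted p = 0.00121). C4BPA, a cofactor in C4b breakdown, passed through N_30 only and was at 0.529, 0.110 and 0.655 CPM in the N_28 libraries and at 3.97, 3.02 and 3.38 CPM in the N_30 libraries. All N_30 values lay above all N_28 values, and N_30 library 3 was the lowest of its set in C1S and C1R. CD55, which shields cells from complement, was lower in N_30 (log2 difference -0.44, SE 0.12, adjusted p = 0.0208), and this call was lost without N_28 library 1, N_28 library 2 or N_30 library 1.

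Of the 53 plasma protein genes, 15 passed the filter, 4 of them through N_30 alone. In edgeR 8 were called higher and 0 lower (53.3% called, against 19.4% over all genes tested). None was lower at an unadjusted p under 0.05 or in DESeq2. Among the 10 that passed the filter in both sets, 4 were higher. CP, which carries copper in plasma, was at 5.72, 5.10 and 6.42 CPM in the N_28 libraries and at 35.7, 24.8 and 19.2 CPM in the N_30 libraries (log2 difference 2.19, SE 0.21, adjusted p = 3.75e-05). FGG, the fibrinogen gamma chain, was at 1.73, 1.87 and 0.874 CPM in the N_28 libraries and at 9.91, 6.68 and 5.87 CPM in the N_30 libraries (log2 difference 2.34, SE 0.28, adjusted p = 0.000184), and FGA (1.76) and FGB (0.48) were also higher. TF, transferrin, was at 0.288, 0.220 and 0.830 CPM in the N_28 libraries and at 6.25, 2.76 and 6.58 CPM in the N_30 libraries. TF and SERPINA1 stood near the detection limit in N_28. SERPINA1, the main antiprotease of plasma, had 0.192, 0.110 and 0 CPM in N_28 and 1.74, 0.653 and 1.82 CPM in N_30. Summed over the list, levels ran from 187 to 205 CPM in N_28, 240 to 283 in N_30 and 216 to 271 in control libraries. Hepatic enzymes and transporters split, with 3 of 15 higher and 4 lower (46.7% called). NNMT, which methylates nicotinamide, was at 1.78, 1.21 and 1.40 CPM in the N_28 libraries and at 6.91, 7.79 and 6.18 CPM in the N_30 libraries (log2 difference 2.24, SE 0.18, adjusted p = 1.42e-05). CYP3A5, a drug-metabolising cytochrome, was at 18.1, 18.05 and 20.1 CPM in the N_28 libraries and at 9.49, 7.54 and 8.36 CPM in the N_30 libraries (log2 difference -1.15, SE 0.11, adjusted p = 3.00e-05). ASS1 of the urea cycle was higher (1.09) and CYP2E1 lower (-0.99). Liver transcription factors split evenly, with 4 of 17 higher and 4 lower (47.1% called, and 3 and 4 of the 14 that passed in both sets). ONECUT1 (-1.18) and FOXA2 (-0.43) were lower, and NR5A2 (0.45) and PROX1 (1.41) higher. The higher calls among these factors numbered 1 without N_28 library 1 and 2 without N_28 library 2, and the lower calls 2 without N_28 library 3 or N_30 library 2.

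The matrix around the cells differed in both directions, with 12 of 35 glycoproteins and proteoglycans higher and 8 lower in N_30. The share called was 57.1%, against 19.4% over all genes tested. NID2, a basement membrane linker, had the largest difference among those higher (1.73), followed by TGFBI and by TNC (1.22), tenascin C of remodelled tissue. GPC1, a membrane-anchored heparan sulfate proteoglycan, was at 44.9, 49.1 and 47.1 CPM in the N_28 libraries and at 90.7, 75.1 and 82.2 CPM in the N_30 libraries (log2 difference 0.81, SE 0.074, adjusted p = 3.11e-05). Lower were HSPG2, perlecan of basement membranes, at 496, 577 and 537 CPM in the N_28 libraries and at 318, 269 and 256 CPM in the N_30 libraries (log2 difference -0.93, SE 0.084, adjusted p = 2.80e-05), and FBLN1, fibulin 1 (-0.87). Control libraries had 528, 395 and 388 CPM of HSPG2, which overlapped N_28. Collagens and their enzymes gave 7 higher and 6 lower of 36 (36.1% called, and 6 and 5 of the 32 that passed in both sets). COL1A1, the main fibrillar collagen chain, was at 35.3, 47.2 and 70.03 CPM in the N_28 libraries and at 173, 106 and 102 CPM in the N_30 libraries (log2 difference 1.31, SE 0.24, adjusted p = 0.00295). COL4A2, a basement membrane collagen, was at 487, 518 and 548 CPM in the N_28 libraries and at 423, 383 and 376 CPM in the N_30 libraries (log2 difference -0.39, SE 0.065, adjusted p = 0.00174), and 3 of 4 chains of its type were lower. The collagen count toward N_30 rested on single libraries, with 4 without N_28 library 1, 3 without N_28 library 2, 4 without N_30 library 1 and 11 without N_30 library 3. Without both libraries numbered 3 it was 12.

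Integrins, which are receptors for the matrix, and laminins of the matrix itself followed both directions as well. Of 23 tested, 7 were higher and 5 lower (52.2% called, against 19.4% over all genes tested). ITGA4, an integrin subunit that binds fibronectin, was at 22.1, 23.5 and 21.2 CPM in the N_28 libraries and at 45.7, 41.6 and 49.2 CPM in the N_30 libraries (log2 difference 1.03, SE 0.079, adjusted p = 8.79e-06). ITGB3 (1.05), ITGB6 (1.04) and ITGA5 (0.59) were also higher. ITGA6, which binds laminin, was at 216, 224 and 208 CPM in the N_28 libraries and at 140, 146 and 156 CPM in the N_30 libraries (log2 difference -0.55, SE 0.059, adjusted p = 8.88e-05), and its partner ITGB4 (-0.49) and the collagen receptor subunit ITGA10 (-1.22) were lower. The lower calls numbered 3 without N_28 library 2, N_30 library 1 or N_30 library 2. Of 21 cadherins 4 were higher, led by CDH2, and 3 lower (33.3% called). Of those 3, 2 passed the filter through N_28 only, and the 19 that passed in both sets gave 4 higher and 1 lower. DSG2 of desmosomes was among those higher (0.54). In the immunoglobulin family (38.1% called) 4 of 21 were higher, ICAM1 (0.99) and NRCAM (1.41) among them, and 4 were lower with MCAM and JAM3 in front. Myosins and actin regulators leaned to N_30, with 14 of 50 higher and 5 lower (38% called, median 0.10). MYL9, a regulatory light chain of contractile myosin, was at 170.3, 185 and 173 CPM in the N_28 libraries and at 376, 313 and 336 CPM in the N_30 libraries (log2 difference 0.95, SE 0.071, adjusted p = 7.95e-06). CALD1 (0.73), CNN1 (0.65) and TPM2 (0.65), which act on actin filaments, were also higher. Without N_28 library 2 the lower calls among them numbered 3. Keratin KRT8 was higher (0.60) and the neural filament NES lower (-0.63), among 4 higher and 3 lower of 17 intermediate filament genes (41.2% called). Ion channels gave 5 higher and 6 lower of 43 (5 and 4 of the 39 that passed in both sets). Over the 43, the shares of 11.6% and 14% lay near the 9.84% and 9.56% over all genes tested. CACNA1A (1.29), a calcium channel subunit, was among those higher. The higher calls numbered 3 without N_30 library 1 and 8 without N_30 library 3, and the lower calls 3 without N_28 library 1 or 2 or N_30 library 1 or 2.

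Genes of EGF and FGF receptor signalling leaned to N_28 (48.5% called, against 19.4% over all genes tested). Of 33 genes 12 were lower and 4 higher in N_30 (median -0.12). The list holds ligands, receptors and the feedback genes that ERK activity switches on. Of 9 dual-specificity phosphatases and Sprouty-type inhibitors, 5 were lower and 0 higher in edgeR, with 6 lower and 1 higher at an unadjusted p under 0.05. DUSP4, a phosphatase of ERK, was at 347, 306 and 390 CPM in the N_28 libraries and at 134, 165 and 173 CPM in the N_30 libraries (log2 difference -1.14, SE 0.10, adjusted p = 2.77e-05). SPRY4, an inhibitor of receptor signalling, was at 58.6, 56.8 and 59.4 CPM in the N_28 libraries and at 35.03, 36.2 and 34.4 CPM in the N_30 libraries (log2 difference -0.73, SE 0.058, adjusted p = 1.17e-05). In both genes the control libraries were nearer to N_30. Among ligands, FGF5 was at 434, 435 and 383 CPM in the N_28 libraries and at 254, 275 and 236 CPM in the N_30 libraries (log2 difference -0.71, SE 0.072, adjusted p = 5.58e-05) and HBEGF at 136, 139.6 and 113 CPM in the N_28 libraries and at 70.1, 71.7 and 51 CPM in the N_30 libraries (log2 difference -1.01, SE 0.12, adjusted p = 0.000199). TGFA, a ligand of the EGF receptor, went the other way at 3.08, 3.02 and 2.53 CPM in the N_28 libraries and at 8.47, 9.10 and 8.14 CPM in the N_30 libraries (log2 difference 1.58, SE 0.14, adjusted p = 2.24e-05). FGFR1 was lower (-0.28), and EGFR did not pass (-0.12, adjusted p = 0.261). Without N_28 library 2, 8 members were lower, the fewest of any library left out.

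Bone morphogenetic protein and TGF-beta genes differed in both directions (55.9% called, against 19.4% over all genes tested). Of 34 genes 12 were higher and 7 lower (10 and 7 of the 32 that passed the filter in both sets). Of the ligands, BMP6 was at 13.3, 13.3 and 11.8 CPM in the N_28 libraries and at 4.99, 4.57 and 4.14 CPM in the N_30 libraries (log2 difference -1.49, SE 0.12, adjusted p = 1.17e-05), and GDF6 had 0.0481, 0.110 and 0.175 CPM in N_28 and 6.79, 5.18 and 2.62 CPM in N_30. GDF6 was thus at or near the counting limit in N_28. Of the receptors, TGFBR1 was at 11.6, 12.3 and 11.1 CPM in the N_28 libraries and at 24.04, 20.6 and 20.2 CPM in the N_30 libraries (log2 difference 0.89, SE 0.10, adjusted p = 8.89e-05) and BMPR1B, which passed through N_30 only, at 0.337, 0.549 and 0.524 CPM in the N_28 libraries and at 3.06, 2.31 and 2.49 CPM in the N_30 libraries. The secreted inhibitors NOG and FSTL3 were higher, with NOG at 1.28 and FSTL3 at 0.78, and the BMP target genes ID2 (-0.68) and ID3 (-0.55) were lower. Notch genes gave 6 higher and 8 lower of 30 (46.7% called, and 6 and 7 of the 28 that passed in both sets). DLK1, NOTCH3 (-1.08), JAG2 (-0.59) and the target gene NRARP (-1.05) were lower, while DNER and HES1 (0.66) were higher. Leaving out single libraries moved these counts to between 2 and 7 higher (2 without N_28 library 1) and between 5 and 10 lower (5 without N_28 library 1, N_30 library 1 or N_30 library 2). Wnt genes gave 3 higher and 6 lower of 23 (39.1% called). The Wnt antagonist SFRP1 and the feedback genes RNF43 (-1.16) and NOTUM (-1.27) were lower, and DKK1, another antagonist, was at 116, 130 and 146 CPM in the N_28 libraries and at 204, 209.8 and 209.8 CPM in the N_30 libraries (log2 difference 0.67, SE 0.075, adjusted p = 0.000126). The higher calls numbered 1 without N_28 library 1 and 5 without N_30 library 3 or without both libraries numbered 3.

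In the insulin-like growth factor axis 5 of 22 genes were higher and 3 lower (36.4% called, against 19.4% over all genes tested). IGF1R, the receptor, was at 60.6, 59.4 and 59.6 CPM in the N_28 libraries and at 104, 97.2 and 87.6 CPM in the N_30 libraries (log2 difference 0.68, SE 0.067, adjusted p = 4.79e-05), and the binding protein IGFBP2 was at 25.6, 25.9 and 23.8 CPM in the N_28 libraries and at 11.1, 12.8 and 12.05 CPM in the N_30 libraries (log2 difference -1.06, SE 0.084, adjusted p = 1.17e-05). The higher calls numbered 3 without N_28 library 2 or 3, and 8 without N_30 library 3 or without both libraries numbered 3. G protein-coupled receptors gave 12 higher and 8 lower of 47 (42.6% called), or 10 and 8 of the 44 that passed the filter in both sets. GPRC5B, an orphan receptor, was at 81.9, 93.8 and 92.1 CPM in the N_28 libraries and at 157, 162 and 173 CPM in the N_30 libraries (log2 difference 0.88, SE 0.067, adjusted p = 8.79e-06). P2RY2, a receptor for extracellular ATP and UTP, was at 2.31, 1.65 and 1.66 CPM in the N_28 libraries and at 7.27, 6.23 and 6.49 CPM in the N_30 libraries (log2 difference 1.82, SE 0.17, adjusted p = 3.82e-05). ADGRL4, an adhesion receptor, was at 11.7, 12.5 and 14.8 CPM in N_28, 27.2, 26.9 and 34.95 CPM in N_30 and 46.4, 57.7 and 58.3 CPM in control libraries (log2 difference 1.19, SE 0.12, adjusted p = 6.80e-05). ADGRL4 thus stood above both sets in control. LPAR1, a lysophosphatidic acid receptor, was at 58.9, 64.6 and 71.3 CPM in the N_28 libraries and at 34.5, 36.2 and 41.2 CPM in the N_30 libraries (log2 difference -0.80, SE 0.086, adjusted p = 9.17e-05). SUCNR1, the succinate receptor, passed through N_30 only and had 0.433, 0.933 and 0.218 CPM in N_28, 9.07, 7.54 and 3.56 CPM in N_30 and 11.2, 8.79 and 7.66 CPM in control libraries.

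Immune signalling lists held members on both sides. Among 43 interferon response genes 8 were higher and 7 lower (34.9% called, against 19.4% over all genes tested). Higher were IFITM3, GBP1 and IFITM2, the last at 20.05, 19.5 and 19.3 CPM in the N_28 libraries and at 44.2, 43.2 and 37.9 CPM in the N_30 libraries (log2 difference 1.09, SE 0.076, adjusted p = 4.92e-06). OAS1, which senses double-stranded RNA, was lower, at 16.5, 20.2 and 19.5 CPM in the N_28 libraries and at 5.35, 6.38 and 7.11 CPM in the N_30 libraries (log2 difference -1.57, SE 0.12, adjusted p = 1.18e-05). The lower calls numbered 4 without N_28 library 1, N_28 library 3 or N_30 library 1. IFITM2 and IFITM3 are near-identical copies, and reads could have been split between them. Among 47 NF-kB and cytokine genes 7 were higher and 9 lower (34% called). CCL2, a chemokine for monocytes, was higher, at 27.6, 18.6 and 18.2 CPM in the N_28 libraries and at 45.8, 47.6 and 37.9 CPM in the N_30 libraries (log2 difference 1.03, SE 0.15, adjusted p = 0.000622), and BIRC2, a ubiquitin ligase of the TNF receptor complex, was lower, at 104, 92.95 and 93.8 CPM in the N_28 libraries and at 56.4, 61.5 and 55.5 CPM in the N_30 libraries (log2 difference -0.75, SE 0.066, adjusted p = 2.57e-05). The higher calls were 11 without N_30 library 3 and 12 without both libraries numbered 3, and the lower calls were 3 without N_28 library 1, 4 without N_28 library 2 and 4 without N_30 library 1. Of 22 HLA class I and antigen presentation genes, 6 were higher and 2 lower (36.4% called). B2M (0.32), HLA-B (0.53) and the class I activator NLRC5 (1.30) were among those higher. Their higher calls numbered 3 without N_28 library 2, N_30 library 1 or N_30 library 2, and their lower calls 1 without N_28 library 1 or 3 or N_30 library 1 or 2. HLA genes are similar enough that reads may be shared.

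NRF2 is the factor that switches on antioxidant and detoxifying genes. On its target list 12 of 49 genes were higher in N_30 and 5 lower (34.7% called, against 19.4% over all genes tested). NQO1 was on the lower side. ALDH3A2, a fatty aldehyde dehydrogenase, was lower, at 119.8, 99.5 and 112 CPM in the N_28 libraries and at 70.4, 69.2 and 65.5 CPM in the N_30 libraries (log2 difference -0.70, SE 0.072, adjusted p = 7.02e-05). All 5 aldo-keto reductases were higher. AKR1B1 was at 291, 249 and 272 CPM in the N_28 libraries and at 468, 534 and 381 CPM in the N_30 libraries (log2 difference 0.77, SE 0.11, adjusted p = 0.000509) and AKR1C2 at 160.3, 142 and 133 CPM in the N_28 libraries and at 284, 281 and 199 CPM in the N_30 libraries (log2 difference 0.81, SE 0.12, adjusted p = 0.000872). N_30 library 3 was the lowest of its set for both. AKR1C1, AKR1C2 and AKR1C3 are close copies, so their separate counts are uncertain. NFE2L2, which encodes NRF2 (-0.13, adjusted p = 0.142), TXNRD1 (-0.02, adjusted p = 0.956) and HMOX1 (0.82, adjusted p = 0.121) did not pass. The antioxidant core TGACNNNGC, searched on both strands in the 250 bases before the start, was in 1 of 9 promoters of genes called higher, 1 of 4 of those called lower and 8 of 23 of those not called, beside 13.2% of all genes in the promoter table. Lower calls on the list numbered 2 without N_28 library 1 or 2, and 3 without N_28 library 3 or N_30 library 2.

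Of 40 genes of mitochondrial fusion, fission and cristae, 5 were higher and 2 lower (17.5% called, against 19.4% over all genes tested, and a median of 0). INF2, a formin that acts in fission, was at 461, 439 and 436 CPM in the N_28 libraries and at 338, 352 and 337 CPM in the N_30 libraries (log2 difference -0.38, SE 0.052, adjusted p = 0.000521). CHCHD6, a cristae junction protein, was at 11.97, 10.97 and 12.4 CPM in the N_28 libraries and at 16.6, 16.3 and 15.9 CPM in the N_30 libraries (log2 difference 0.46, SE 0.088, adjusted p = 0.00384). OPA1, SAMM50 (0.31), MIEF1 (0.22) and FIS1 (0.19) were the others higher. The mitofusins MFN1 (0.14, adjusted p = 0.156) and MFN2 (-0.02, adjusted p = 0.876) did not pass. The higher calls numbered 2 without N_28 library 1, 1 without N_28 library 2, 2 without N_28 library 3, 3 without N_30 library 1 and 1 without N_30 library 2. The lower calls numbered 1 in each of these 5 cases. Of 78 nuclear genes of the respiratory chain, 4 were higher and 0 lower in edgeR (5.13% called), with 10 higher and 2 lower at an unadjusted p under 0.05. ATP5F1E was at 139.5, 138 and 141 CPM in the N_28 libraries and at 162, 159.9 and 165 CPM in the N_30 libraries (log2 difference 0.22, SE 0.050, adjusted p = 0.011), and UQCR10 (0.30), NDUFB1 (0.24) and SDHA (0.21) were the other three. Each lost its call under at least 1 library left out, ATP5F1E without N_28 library 2 (adjusted p = 0.0519). The calls numbered 1 without N_28 library 1 or 2 and 2 without N_28 library 3 or N_30 library 2. None of the 13 mitochondrially encoded mRNAs was called by edgeR or DESeq2 at an adjusted p under 0.05, or by edgeR at an unadjusted p under 0.05.

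Stress and metabolic lists held members on both sides. The integrated stress response and amino acid supply gave 5 higher and 6 lower of 40. These were 12.5% and 15%, near the 9.84% and 9.56% over all genes tested. SLC6A9, a glycine transporter, was at 19.95, 16.2 and 18.1 CPM in the N_28 libraries and at 29.9, 31.5 and 27.6 CPM in the N_30 libraries (log2 difference 0.71, SE 0.090, adjusted p = 0.000296), and the factor ATF4 did not pass (0.03, adjusted p = 0.823). Higher calls numbered 1 without N_28 library 2, N_28 library 3, N_30 library 1 or N_30 library 2, and the lower calls 3 without N_28 library 1 or 2. The unfolded protein response gave 2 higher and 2 lower of 34 (11.8% called, against 19.4% over all genes tested). ERO1B, an oxidase of the endoplasmic reticulum, was at 46.7, 47.4 and 46.7 CPM in the N_28 libraries and at 29.1, 28.3 and 27.6 CPM in the N_30 libraries (log2 difference -0.73, SE 0.060, adjusted p = 1.39e-05). The higher and lower calls of the list numbered 1 each without N_28 library 1 or 2, the higher ones also 1 without N_30 library 2 and 4 without both libraries numbered 3. Glycolysis and hypoxia genes gave 7 higher and 7 lower of 41 (34.1% called). EPAS1, which encodes HIF-2 alpha, was at 65.9, 68.3 and 69.8 CPM in the N_28 libraries and at 136, 135 and 133 CPM in the N_30 libraries (log2 difference 0.98, SE 0.053, adjusted p = 1.26e-06). BHLHE40, a repressor induced by hypoxia, was at 18.03, 18 and 15.03 CPM in the N_28 libraries and at 47.1, 47.1 and 44.8 CPM in the N_30 libraries (log2 difference 1.45, SE 0.081, adjusted p = 1.28e-06). The glucose transporter SLC2A1 was higher (0.60) and the lactate exporter SLC16A3 lower (-1.13), and the lower calls numbered 4 without N_28 library 1, 2 or 3 or without N_30 library 1. Sterol and fatty acid synthesis gave 5 higher and 1 lower of 39 (15.4% called), with FASN lower (-0.23). The higher calls numbered 1 without N_28 library 1, N_30 library 1 or N_30 library 2, and 2 without N_28 library 2 or 3. The lower calls numbered 0 without N_28 library 2 or 3 and 3 without N_30 library 3.

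Genes of G1/S and DNA replication leaned to N_28, with 11 of 50 lower and 3 higher in N_30 (28% called, median -0.11). Of 51 genes of G2/M and mitosis, 2 were lower and 0 higher (3.92% called, against 19.4% over all genes tested). At an unadjusted p under 0.05 edgeR gave 5 lower and 1 higher in G2/M, and DESeq2 gave 3 lower and 1 higher at an adjusted p under 0.05. The G2/M count depended on single libraries, with 23 lower without N_30 library 3, 16 without both libraries numbered 3, and 0 without N_28 library 2, N_28 library 3, N_30 library 1 or N_30 library 2. CCND1, cyclin D1, was at 681, 674 and 595 CPM in the N_28 libraries and at 494, 512 and 437 CPM in the N_30 libraries (log2 difference -0.43, SE 0.074, adjusted p = 0.00206). FEN1, the flap endonuclease of replication, went the other way at 68.9, 67.4 and 74.4 CPM in the N_28 libraries and at 108, 109 and 105 CPM in the N_30 libraries (log2 difference 0.61, SE 0.058, adjusted p = 3.81e-05). RB1, which restrains entry into S phase, was lower (-0.35), as were CDT1 (-0.31) and POLD1 (-0.30). Without N_28 library 2 the lower calls numbered 6. Immediate early factors gave 4 higher and 8 lower of 27 (44.4% called). JUNB, an AP-1 subunit, was at 18.6, 18.6 and 22.3 CPM in the N_28 libraries and at 55.9, 50.1 and 37.5 CPM in the N_30 libraries (log2 difference 1.26, SE 0.13, adjusted p = 8.07e-05), and EGR1 was also higher (1.18), while JUN (-0.31), FOSL1 (-0.37) and KLF2 (-1.25) were lower. The urokinase system and matrix proteases gave 8 higher and 9 lower of 37 (45.9% called). PLAU, urokinase, was at 273, 249 and 269.6 CPM in the N_28 libraries and at 167, 194 and 178 CPM in the N_30 libraries (log2 difference -0.55, SE 0.067, adjusted p = 0.00021), and its receptor PLAUR was also lower (-0.66), whereas the matrix proteases MMP7 (1.73), MMP10 (1.34) and ADAMTS15 (1.01) were higher.

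Lineage transcription factors gave 10 higher and 11 lower of 55 (38.2% called, and 10 and 10 of the 53 that passed the filter in both sets). Besides MSC and RUNX3, TFAP2C was at 83.4, 83.1 and 87.99 CPM in the N_28 libraries and at 50, 56.04 and 55.9 CPM in the N_30 libraries (log2 difference -0.65, SE 0.063, adjusted p = 4.26e-05) and FOXC2 at 58.6, 58.8 and 61.9 CPM in the N_28 libraries and at 42.3, 42.2 and 42.02 CPM in the N_30 libraries (log2 difference -0.50, SE 0.056, adjusted p = 0.000117). The 3 RUNX factors parted, with RUNX1 (1.68) and RUNX2 (0.81) higher and RUNX3 lower. Of 41 HOX genes 13 were tested, of which 3 were lower (HOXB7 -1.13, HOXB6 -0.61 and HOXC4 -1.02). The share called was 23.1%, near the 19.4% over all genes tested. Of the 8 that passed the filter in both sets, 2 were lower and 0 higher. The count of 3 fell to 1 without N_28 library 2, N_28 library 3 or N_30 library 1. Cytosolic ribosomal protein genes gave 5 higher and 2 lower of 79 (8.86% called, against 19.4% over all genes tested). Of their differences, 63 of 79 were above 0, with a median of 0.08. RPS6 was at 809, 830.4 and 825 CPM in the N_28 libraries and at 922, 1016 and 1001 CPM in the N_30 libraries (log2 difference 0.25, SE 0.056, adjusted p = 0.009). The higher calls ranged from 0 without N_28 library 1 to 10 without N_30 library 1, with 2 without N_28 library 2, 3 without N_28 library 3 and 3 without N_30 library 2. The lower calls numbered 1 without N_30 library 3 and 0 without any other single library.

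**Figure D3:**
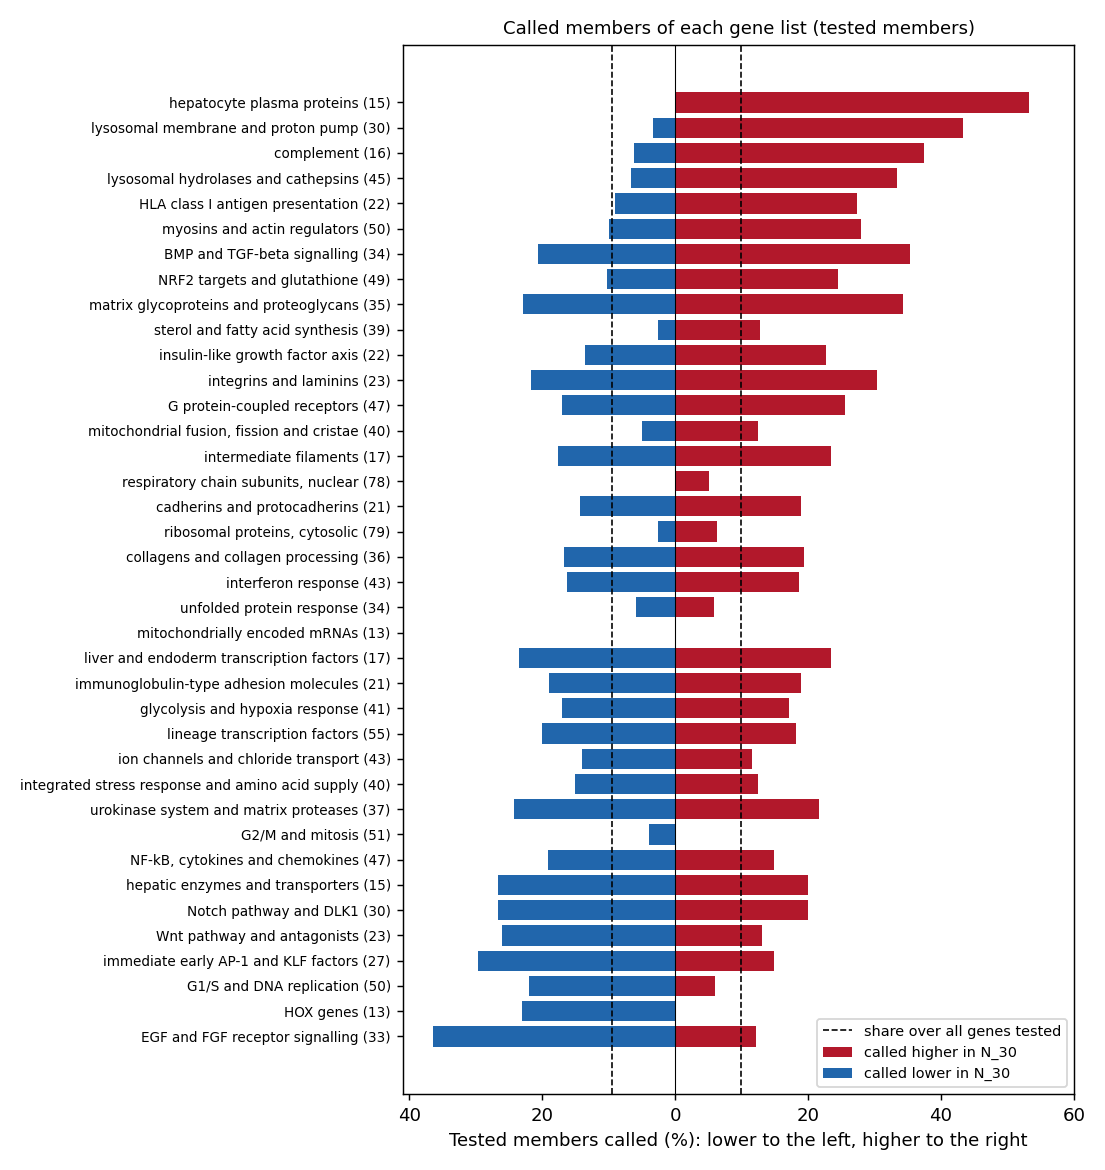
Share of tested members called higher (right) and lower (left) in N_30 for the gene lists with at least 10 tested members, with the number tested in brackets and dashed lines at the shares over all genes tested (9.84% and 9.56%). Hepatocyte plasma proteins reach furthest to the right (53.3%, with 4 of 15 tested members let in through N_30 alone), then the lysosomal membrane and pump list (43.3%). Complement (37.5%), BMP and TGF-beta signalling (35.3%) and matrix glycoproteins (34.3%) also exceed the lysosomal hydrolases (33.3%). EGF and FGF receptor signalling reaches furthest to the left (36.4%).

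Marker lists for 5 other kinds of cell were read beside these results. Of 13 blood and immune markers, 12 were under 1 CPM in all 9 libraries, with summed levels of 0.673 to 1.15 CPM in N_28 and 0.503 to 1.38 in N_30. PTPRC, the leukocyte antigen CD45, was at 0.240, 0.439 and 0.262 CPM in the N_28 libraries and at 0.180, 0.101 and 0.222 CPM in the N_30 libraries. Of 12 endothelial markers 9 were under 1 CPM, and their sum was 34.8 to 38.5 CPM in N_28 and 28.9 to 37.1 in N_30. Fibroblast and stellate markers summed to 606 to 766 CPM in N_28, 720 to 883 in N_30 and 644 to 847 in control libraries, with 2 of 7 tested members higher. These were COL1A1 and FAP, a protease of activated fibroblasts, which had 0, 0.0549 and 0.131 CPM in N_28 and 2.16, 2.66 and 1.29 CPM in N_30. Of the 5 that passed the filter in both sets, COL1A1 was higher and 0 were lower. Biliary and epithelial markers summed to 1560 to 1810 CPM in N_28, 2010 to 2410 in N_30 and 1960 to 2410 in control libraries, with 2 of 6 tested members higher and 1 lower. ESRP2, a splicing factor of epithelial cells, was at 17.6, 15.5 and 14.8 CPM in the N_28 libraries and at 34.2, 36.04 and 28.9 CPM in the N_30 libraries (log2 difference 1.05, SE 0.10, adjusted p = 3.82e-05). SOX9, a factor of duct and progenitor cells, was lower, at 216, 235 and 256 CPM in the N_28 libraries and at 179, 177 and 220.2 CPM in the N_30 libraries (log2 difference -0.29, SE 0.090, adjusted p = 0.0413), with values that overlapped between the sets, and this call was lost without N_28 library 2 or 3 or N_30 library 1 or 2 (adjusted p = 0.112, 0.137, 0.134 and 0.151). KRT7, a keratin of ducts, was at 474, 509 and 494 CPM in the N_28 libraries and at 724, 633 and 719.7 CPM in the N_30 libraries (log2 difference 0.49, SE 0.064, adjusted p = 0.000354), and KRT19 (0.180, 0.151 and 0.178 CPM in N_30) and EPCAM were near the counting limit. Kidney markers summed to 183 to 254 CPM in N_28 and 237 to 273 in N_30. PAX2, a factor of kidney development, was at 118, 128 and 182 CPM in the N_28 libraries and at 137, 118 and 185 CPM in the N_30 libraries and did not pass (0.04, adjusted p = 0.905), and LHX1 was higher (log2 difference 0.82, SE 0.11, adjusted p = 0.000524). The part of these markers in the other results was not tested. In bulk RNA, more cells of a type and more RNA per cell cannot be told apart.

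Position on the chromosomes, which the comparison did not use, was uneven among the called genes. Positions are those of GENCODE release 29 on GRCh38. On chromosome 13, 89 of 233 genes tested were lower in N_30 (38.2%) and 9 higher, with a median log2 difference of -0.22. On chromosome 22, 96 of 381 were higher (25.2%) and 13 lower, with a median of 0.17. Chromosomes 20 (78 higher and 18 lower of 391), 18 (40 and 7 of 208), 9 (98 and 25 of 589), 15 (67 and 20 of 491) and 10 (93 and 32 of 614) also leaned to N_30. Without N_28 library 2 the higher calls numbered 48 on chromosome 20, 60 on 9, 44 on 15 and 54 on 10, the last beside 21 lower, and chromosome 20 had 51 higher without N_28 library 3. The lower calls on chromosome 18 ranged from 2 without N_28 library 2 to 5 without N_30 library 2, with 3 without N_28 library 1 and 4 without each of the other three. Counted over all their genes, chromosomes 6 (49 higher and 140 lower of 706), 14 (34 and 80 of 470), 17 (53 and 120 of 938) and 19 (52 and 144 of 1078) leaned to N_28. They had 31, 21, 29 and 29 higher and 99, 49, 67 and 72 lower without N_28 library 2. Chromosome 14 had 22 higher without N_30 library 1. The lower calls without N_28 library 1, N_28 library 3 and N_30 library 2 numbered 74, 77 and 73 on chromosome 17 and 81, 91 and 88 on chromosome 19. Without N_28 library 2, chromosome 13 had 53 genes lower and chromosome 22 had 59 higher, and without both libraries numbered 3 they had 77 and 91. Chromosome 13 had 59 lower without N_30 library 2, and chromosome 22 had 7 lower without N_28 library 2 or N_30 library 2. Among genes averaging at least 5 CPM, the median level on chromosome 13 against the mean of the control libraries was 0.18, 0.19 and 0.16 in N_28 and -0.05, -0.07 and -0.09 in N_30 on the log2 scale. On chromosome 22 it was -0.098, -0.11 and -0.11 in N_28 and 0.025, 0.07 and 0.08 in N_30. Both sets are set against the same control libraries in these values. The control libraries themselves stood at -0.039, 0.023 and 0.019 on chromosome 13 and at 0.024, -0.029 and 0.005 on chromosome 22. The 3 libraries of a knock-down set stood together on both chromosomes, on opposite sides of the control mean, with N_30 nearer to the control libraries than N_28.

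On chromosome 13, 3 stretches of 20 Mb held at least 20 genes averaging 5 CPM or more, and all 3 leaned to N_28. Their median difference was -0.27 from 20000001 to 40000000 (50 genes, 4 higher and 26 lower), -0.29 from 40000001 to 60000000 (45 genes, 0 higher and 25 lower) and -0.21 from 100000001 to 120000000 (36 genes, 0 higher and 14 lower). Of 146 stretches with at least 20 genes, 4 had a median beyond 0.2 in size, these 3 and the first 20 Mb of chromosome 6 (-0.23, 63 genes, 2 higher and 28 lower). The highest median was 0.20 on chromosome 9 from 20000001 to 40000000, where 23 of 65 genes were higher, 0 lower and 64 above 0. The lean of chromosomes 6, 17 and 19 did not run their whole length. The first 20 Mb of chromosome 19 had a median of 0.033 (39 higher and 10 lower), against -0.185 from 20000001 to 40000000. Chromosome 6 had a median of 0.09 from 100000001 to 120000000 (5 higher and 0 lower). On chromosome 17 the median was 0.034 in the first 20 Mb and -0.151 from 60000001 to 80000000. Single genes could go against their chromosome. On chromosome 13, SHISA2 was higher in N_30, at 27.9, 25.7 and 28.3 CPM in the N_28 libraries and at 48.2, 55.6 and 47.2 CPM in the N_30 libraries (log2 difference 0.88, SE 0.078, adjusted p = 2.52e-05), as was GJA3, a connexin (1.14). On chromosome 22, FBLN1 was lower. NPTXR, a neuronal pentraxin receptor on the same chromosome, was higher, at 37.98, 36.8 and 45.3 CPM in the N_28 libraries and at 126, 114 and 128 CPM in the N_30 libraries (log2 difference 1.61, SE 0.083, adjusted p = 1.26e-06).

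**Figure D4:**
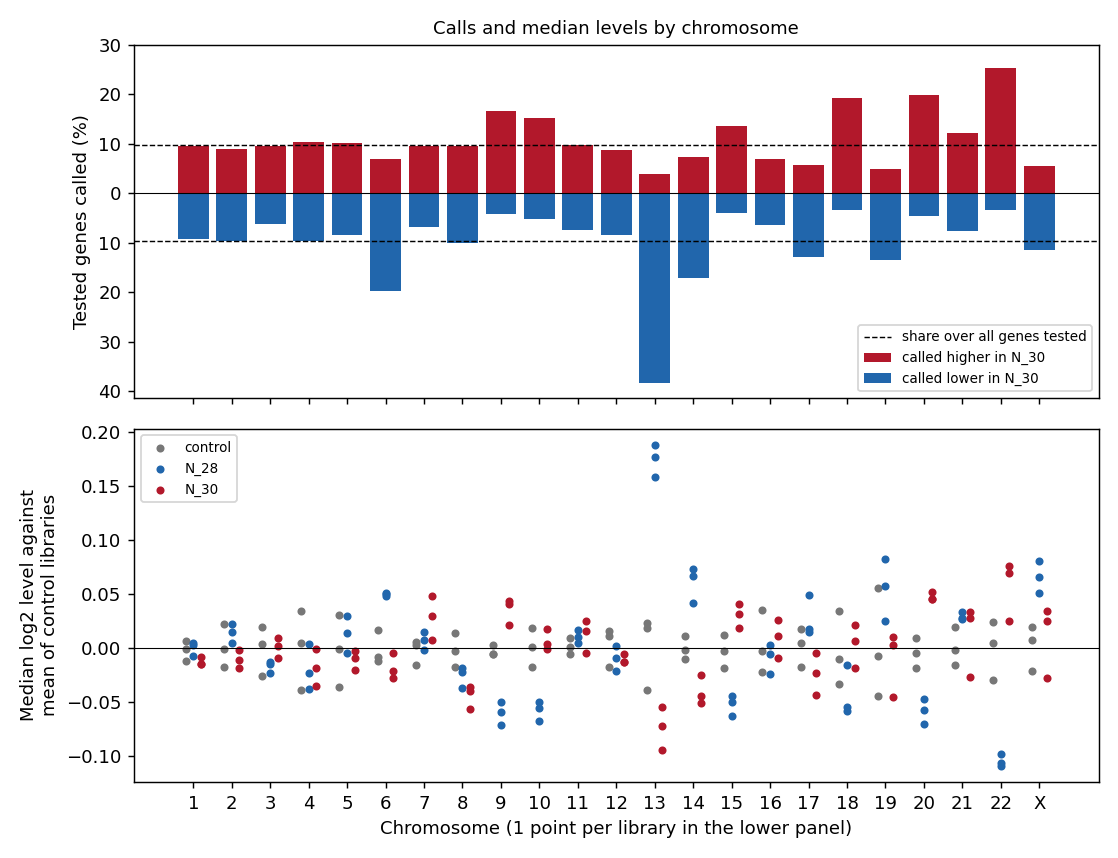
Upper panel, share of tested genes on each chromosome called higher (up) or lower (down) in N_30, with dashed lines at the shares over all genes tested (9.84% and 9.56%). Lower panel, median log2 level of genes with at least 5 CPM against the mean of the control libraries, 1 point per library, where the N_28 points of chromosome 13 lie at 0.16 to 0.19 and the N_30 points below 0.

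The control libraries entered no test, and their levels place the called genes. For 1166 of the 1446 genes higher in N_30 (80.6%) and 1215 of the 1405 lower (86.5%), the control mean lay between the means of the sets. Among genes not called it lay between them for 4824 of 11845 (40.7%). Called genes were selected for a gap between the sets, which leaves the control mean more room to lie between. The shares of called and other genes thus differ in part by construction. On the log2 scale the control mean was nearer to N_30 for 76.2% of the genes higher and 72.7% of those lower, beside 56.4% of genes not called. C3, MSC, ANO1 and MYH14 all had control means between the sets.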

How the data were processed

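RNA sequencing libraries of total RNA were read from the deposited table of whole-number read counts per gene under human Ensembl identifiers. Per the submitters' processing notes mm8, a mouse build, is named. No source used here gives the aligner, counting tool, annotation or strand setting. Symbols came from a gene name table and GENCODE release 29, which left 3580 rows unnamed. From the authors' deposited counts of the 6 knock-down libraries, genes were kept by edgeR's filter (minimum count 10), scaled by TMM and tested with the quasi-likelihood test (edgeR 4.0.16, limma 3.58.1, R 4.3.3). P-values were adjusted by Benjamini-Hochberg over 14696 genes, and genes with an adjusted p under 0.05 were called. SE is the log2 difference divided by the root of the test statistic. The script was tested on simulated data. The alternatives were other size factors, DESeq2 1.42.0, other filters, all 9 libraries, a replicate block and libraries left out. Pairs of libraries within a group had chi-square values of 3.65 to 12.6 a gene, so none was taken as a copy. Named genes were the marker genes, OPA1, the 12 highest and lowest non-overlapping called differences at 5 CPM or more, the 8 at 100 CPM, the called members with the 4 lowest adjusted p of each list and 3 of each chromosome, and well-known members that did not pass. Other list members, SUCNR1 and PRR15 were named after their values were seen. Members and all 43 gene lists were chosen with earlier results of these data known. In 33 of the 43 lists the share of tested members called was above the 19.4% of all genes tested, so such an excess is not particular to 1 list. Promoters are those of the RefSeq table, matched by symbol. Without strand, reads where NPC1 overlaps RMC1, TF overlaps SRPRB, KRT8 overlaps KRT18, SLC16A3 overlaps CSNK1D and FEN1 overlaps FADS2 cannot be told apart. Some genes are not reported here.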

Additional observations from a re-analysis of the deposited data

How the results depend on the processing

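None of the log2 differences of the 211 named genes recomputed changed direction under these alternatives. Genes named outside that set, among them all that did not pass, were not recomputed. The balance of calls within a list could turn. Without N_28 library 1, NF-kB and cytokine genes gave 8 higher and 3 lower, against 7 and 9 with all libraries. Collagens and their enzymes then gave 4 higher and 7 lower, against 7 and 6. The 2851 called genes became 2856 with DESeq2's size factors, 2483 with DESeq2's Wald test (285 adjusted p-values NA), 3321 with no filter, 2513 where genes averaged at least 5 CPM and 2755 in a fit of all 9 libraries. With libraries left out in turn, called genes ran from 1753 to 2914, those higher in N_30 from 924 to 1506, those lower from 829 to 1408, and the OPA1 difference from 0.18 to 0.24 (adjusted p 0.0298 to 0.1, the call lost in 4 of 6). Genes of at least 1 on the log2 scale were 457, and 179 where genes averaged at least 5 CPM, a bound that leaves out the low levels where most of them lie. The replicate block gave 3770 called genes, 1910 higher and 1860 lower. Replicate numbers were not taken to pair the libraries, since the correlations of same-numbered ones, 0.0927, 0.00872 and 0.49, were not all over 0.1. Those numbered 3 correlated most, and N_28 library 1 correlated best with N_30 library 2 (0.402). Of 2721 values of 211 named genes recomputed, 2632 kept their call and 89 lost it, in 22 genes. The removal of both libraries numbered 3 was chosen after seeing the data. Depth limits levels under 0.131 to 0.18 CPM, and the 3 libraries per set limit the precision of every difference.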
